A study of Mus musculus with 4 samples.

Results

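Cortical layer markers are genes that neurons of particular cortical layers express more strongly than the rest. The 9 genes described here are Cux1, Rorb, Mef2c, Lmo4, Etv1, Crym, Pcp4, Tbr1 and Foxp2. These genes were chosen with earlier results of these data known. Their members on the array were all probe sets whose only gene symbol is 1 of these 9, a rule that uses no measured value. It found 10 probe sets for 6 genes among the 12488 probe sets of the array. No probe set carried the symbol of Rorb, Etv1 or Foxp2 alone, so these 3 genes have no value here. For Etv1 and for Pcp4, a probe set that lists a further gene beside it was left out by the rule.

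Visual cortex came from 5 wild-type mice of the C57Bl6 strain. Per the labels, the mice were kept in the dark from birth, lost 1 eye on postnatal day 42, then lived in a normal light-dark cycle for 4 days and were killed on postnatal day 46. The deprived group is the cortex contralateral to the missing eye and the non-deprived group the cortex ipsilateral to it, so the groups share strain, age, dark rearing, light exposure and surgery and differ by side. Each group had 2 arrays of pooled tissue, and the ipsilateral hemisphere serves as the control, with no unoperated animals in the comparison. The labels do not say how the mice were divided over the pools, and p-values therefore measure the spread between these arrays, which may in part be technical. The main fit did not pair the arrays. Same-numbered pairs below rest on a reading of the design text, and a fit with the replicate as a block is among the alternatives.

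In the mouse visual cortex, neurons of different layers have different partners. Layer 4 receives most of the thalamic input, layers 2 and 3 connect cortical areas, layer 5 projects to the midbrain, brainstem and striatum, and layer 6 projects back to the thalamus. Transcription factors that set up these identities stay expressed in the adult and are used to tell the layers apart. Because the cortex was dissected out of thick coronal sections, a strip that took in more or less of the deep layers would move upper and deep markers in opposite directions, and the markers therefore serve as a check of laminar sampling between the groups. In bulk tissue, fewer cells of a type and less RNA per cell cannot be told apart.

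No layer marker showed a difference between deprived and non-deprived cortex that was larger than the spread of the arrays in the test used. Of the 10 probe sets, 8 passed the filter on dim signals and were tested. None of the 8 was called at an adjusted p under 0.05 in limma with Benjamini-Hochberg adjustment over 7458 tested probe sets, where 0.107% of all tested probe sets were called, all of them lower in deprived cortex. None of the 8 reached an unadjusted p under 0.05 either, a mark passed by 5.43% of all tested probe sets. The largest difference was that of the deep-layer gene Crym, 1.36-fold higher in deprived cortex, and the other 7 probe sets lay between 0.93 and 1.17 of the non-deprived level. In what follows, signals are given for array 1 and then array 2 of a group. The folds, and all log2 differences below, are on the scale log2(signal + 60.6), where a change of a dim probe set appears smaller than it is.

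**Figure D1:**
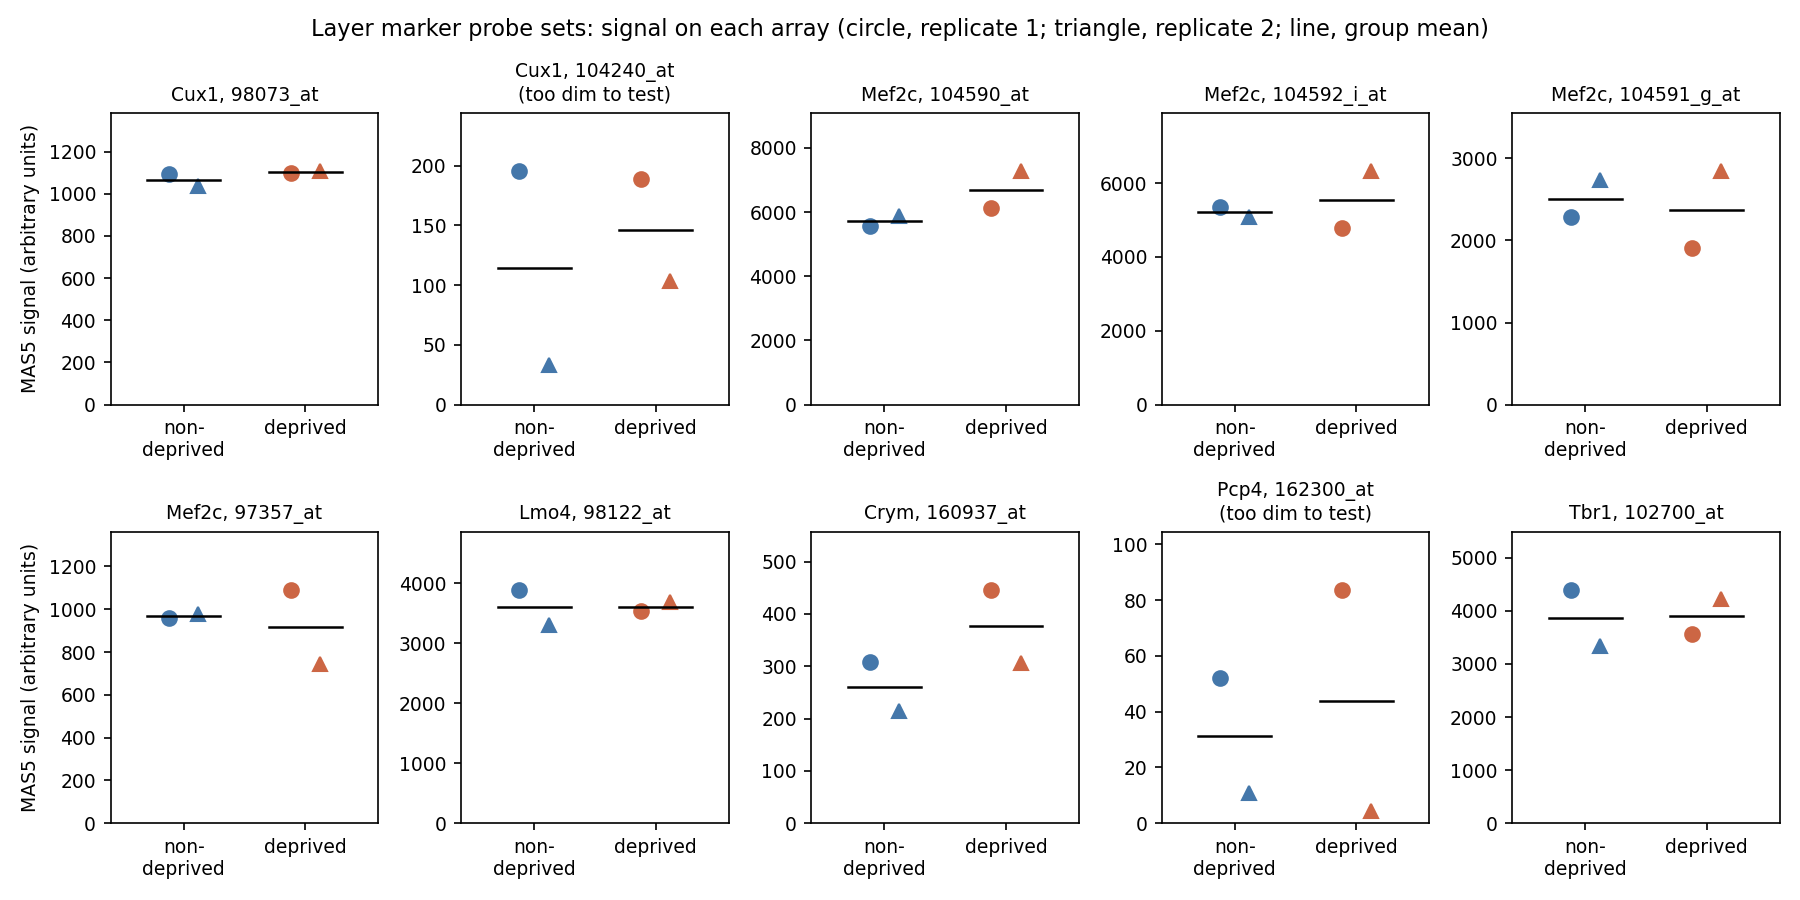
Signal of each of the 10 layer marker probe sets (vertical axis, MAS5 signal in arbitrary units, from 0) on the 2 non-deprived and 2 deprived arrays; circles are replicate 1, triangles replicate 2 and lines group means. The deprived and non-deprived arrays overlap for all probe sets except Cux1 98073_at and Mef2c 104590_at.

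Of the upper-layer members, Cux1 and Rorb, only Cux1 was measured. It encodes a homeodomain transcription factor of the neurons of layers 2 to 4. Its brighter probe set, 98073_at, had signals of 1096 and 1106 in deprived cortex, and of 1092 and 1036 in non-deprived cortex. Both deprived arrays were above both non-deprived arrays, but deprived array 1 and non-deprived array 1 were nearly equal. The group means were 1101 ± 7.0 and 1064 ± 39.5 (SD, n = 2 per group). The fitted log2 difference, deprived minus non-deprived, was 0.05 ± 0.18 (SE), with a 95% interval from -0.35 to 0.45 and a limma adjusted p of 0.999. On the fold scale the interval ran from 0.78 to 1.36.

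The other Cux1 probe set, 104240_at, was too dim to test. Its signals were 189 and 104 in deprived and 195 and 33.0 in non-deprived cortex. Both replicate 1 arrays were above both replicate 2 arrays, and the groups overlapped. The mean over the arrays, 130.2, was just under the filter of 142.9. With no filter its log2 difference was 0.39 ± 0.59 (SE), an error that covers a change in either direction.

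Mef2c and Lmo4 are expressed across upper and deep layers and enter neither side of a comparison of depth. Mef2c encodes a MADS-box transcription factor of cortical excitatory neurons whose activity responds to calcium signals, and 4 probe sets measured it. The brightest, 104590_at, had signals of 6131 and 7270 in deprived cortex, against 5569 and 5872 in non-deprived cortex. All deprived values were above all non-deprived values. The means were 6701 ± 805 and 5721 ± 214 (SD, n = 2 per group), so the difference was little larger than the spread of the deprived arrays. The log2 difference was 0.22 ± 0.18 (SE), with a 95% interval from -0.17 to 0.61 and a limma adjusted p of 0.999, and it was 0.10 without deprived array 2.

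The other Mef2c probe sets did not repeat this difference. Probe set 104592_i_at had signals of 4791 and 6317 in deprived and 5356 and 5080 in non-deprived cortex, with a log2 difference of 0.08 ± 0.19 (SE). Probe set 104591_g_at had 1909 and 2841 on the deprived and 2281 and 2735 on the non-deprived arrays, with a difference of -0.10 ± 0.21. Probe set 97357_at had 1091 and 742 on the deprived and 958 and 980 on the non-deprived arrays, with a difference of -0.10 ± 0.22. At 104592_i_at, 104591_g_at and 97357_at the lowest and the highest signal were both on deprived arrays, and the limma adjusted p of each was 0.999.

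The Mef2c probe sets also differed in which deprived array was high. Deprived array 2 was above deprived array 1 at 104590_at, 104592_i_at and 104591_g_at, by 0.24, 0.39 and 0.56 in log2, and it was below by 0.52 at 97357_at. The annotation lists 104590_at and 104591_g_at under the same source sequence, so these 2 are not independent readings of the gene. Over the 4 probe sets the fitted differences ran from -0.10 to 0.22, and the 95% interval of each included 0.

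Lmo4 encodes a LIM-only protein that joins transcription factors into complexes without binding DNA itself. Its signals were 3536 and 3685 in deprived and 3889 and 3301 in non-deprived cortex. Both deprived arrays lay between the non-deprived ones. With means of 3610 ± 105 and 3595 ± 416 (SD, n = 2 per group), the log2 difference was 0.01 ± 0.17 (SE), the smallest among the tested members, with a 95% interval from -0.36 to 0.38.

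Of the deep-layer genes, Tbr1 and Crym were tested. Tbr1 encodes a T-box transcription factor that specifies the corticothalamic neurons of layer 6. Its signals were 3559 and 4231 in deprived and 4396 and 3331 in non-deprived cortex. The highest and the lowest value were both non-deprived arrays. The means were 3895 ± 475 and 3863 ± 753 (SD, n = 2 per group), and the log2 difference was 0.02 ± 0.19 (SE), with a 95% interval from -0.39 to 0.43 and a limma adjusted p of 0.999. The same-numbered arrays moved in opposite directions, by -0.30 between the replicate 1 arrays and 0.34 between the replicate 2 arrays.

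Crym encodes mu-crystallin, a protein that binds thyroid hormone and is found in deep-layer projection neurons. Its signals were 446 and 307 in deprived and 309 and 214 in non-deprived cortex. The groups met at their edge, with deprived array 2 at 307.1 and non-deprived array 1 at 308.7. The means were 377 ± 98.4 and 261 ± 67.1 (SD, n = 2 per group). The log2 difference was 0.44 ± 0.34 (SE), with a 95% interval from -0.31 to 1.19, a limma unadjusted p of 0.227 and an adjusted p of 0.999.

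The 2 same-numbered pairs gave like values for Crym, 0.46 between the replicate 1 arrays and 0.42 between the replicate 2 arrays in log2. The crossed pairs did not, with 0.89 between deprived array 1 and non-deprived array 2 and -0.0064 between deprived array 2 and non-deprived array 1. Leaving out deprived array 1 lowered the fitted difference to 0.21 and leaving out non-deprived array 2 lowered it to 0.23, while without deprived array 2 or non-deprived array 1 it was 0.67 and 0.65. Its replicate 1 arrays were also above its replicate 2 arrays by like amounts on both sides, 0.46 in deprived and 0.43 in non-deprived cortex. The median signal over all probe sets was likewise higher on the replicate 1 arrays, 246 in deprived and 230 in non-deprived cortex. On the replicate 2 arrays it was 190 and 210, and its part in the Crym values was not tested. Crym was the dimmest of the tested members, and its interval is the widest of them, reaching up to 2.29-fold.

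Pcp4, which encodes a small calmodulin-binding protein found in layer 5 and other projection neurons, was not measurable at the probe set that names it alone. Its signals at 162300_at were 83.7 and 4.3 in deprived and 52.1 and 10.7 in non-deprived cortex. As at the dim Cux1 probe set, both replicate 1 arrays were above both replicate 2 arrays. At a mean of 37.7 it was far under the filter, and no level of Pcp4 is drawn from it.

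**Figure D2:**
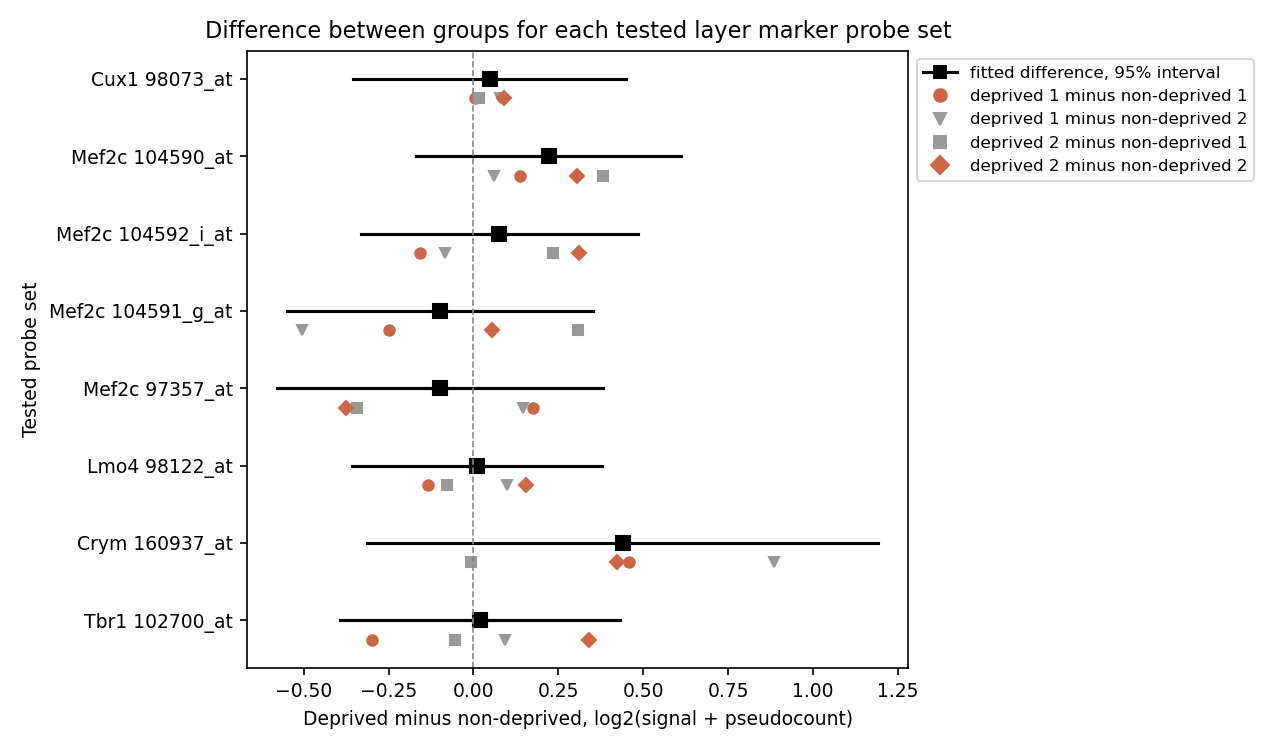
Difference between deprived and non-deprived cortex for the 8 tested layer marker probe sets (horizontal axis, log2 of signal plus pseudocount). Black squares with lines are the fitted differences with 95% intervals, orange symbols the same-numbered pairs of arrays and grey symbols the crossed pairs; all 8 intervals include 0, and the Crym interval is the widest, from -0.31 to 1.19.

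Of the 8 tested probe sets, 6 were higher and 2 lower in deprived cortex, with a median log2 difference of 0.03, beside a median of 0.0015 and a share of 50.2% higher over all tested probe sets. The arrays of the groups did not overlap at 2 of the 8, Cux1 98073_at and Mef2c 104590_at, both higher in deprived cortex. Over all tested probe sets 32.2% had groups that did not overlap, 15.1% with the deprived arrays higher, so the count among the members is near the background. The member median was -0.06 and 0.23 in the same-numbered pairs of replicate 1 and replicate 2, and 0.0056 and 0.086 in the crossed pairs. For any single value, the smallest two-sided p that an exact permutation test can reach with 2 arrays a side is 0.333.

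The comparison of depth set Cux1, as the 1 upper-layer gene tested, against the mean of the 2 deep-layer genes Crym and Tbr1. The upper minus deep difference between groups was -0.18 in log2, with the difference of Cux1 below the mean of those of Crym and Tbr1. Over the arrays, this measure deviated from its mean by -0.15 and -0.031 in deprived and by -0.079 and 0.26 in non-deprived cortex. Non-deprived array 2 was the high one, and the other 3 arrays lay close together. The pairs ranged from -0.41 to 0.048, and without non-deprived array 2 the difference was -0.012. The value rests on Crym, since with a stricter filter that left Crym out, Cux1 minus Tbr1 was 0.028.

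Layer genes beyond the 9 members were not called either. Lists for layer 1 with the subplate, layers 2 to 4, layer 5 and layer 6 named 73 further genes, of which 43 had a probe set of their own and 30 were tested, each at its brightest probe set. None of the 30 was called in limma, 18 were higher and 12 lower, and 1 had an unadjusted p under 0.05. These counts stand beside 0.107% of all tested probe sets called and 5.43% at an unadjusted p under 0.05. The median log2 difference of the 30 was 0.048. By depth, the medians were -0.10 over 4 genes of layer 1 and the subplate, 0.00082 over 8 genes of layers 2 to 4, 0.025 over 11 genes of layer 5 and 0.12 over 7 genes of layer 6. These medians moved with single arrays. Without deprived array 2 they were -0.18, 0.097, -0.14 and -0.055 in the same order, and without non-deprived array 2 they were -0.13, -0.037, -0.058 and 0.034. The layers 2 to 4 median was -0.065 both when dim probe sets were kept and when the filter was raised to the 60th percentile.

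The layer 6 gene Rprm, which encodes the cell cycle inhibitor Reprimo, had the smallest p of the 30. Its probe set 161616_f_at had signals of 997 and 688 in deprived and 490 and 454 in non-deprived cortex. Both deprived arrays were above both non-deprived arrays. The log2 difference was 0.74 ± 0.24 (SE), with a limma unadjusted p of 0.0108 and an adjusted p of 0.586. A second tested Rprm probe set, 162258_f_at, gave 0.35 ± 0.26 with an adjusted p of 0.999, and its arrays did not overlap either. Nfib, a transcription factor of deep-layer neurons and glia, had the next smallest p of the layer 6 list, with a difference of 0.14 ± 0.21.

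Fezf2 and Parm1, the genes of the layer 5 list with the smallest p, were low on 1 array only. Fezf2, the transcription factor that specifies subcerebral projection neurons, had signals of 855 and 1630 in deprived and 1669 and 1471 in non-deprived cortex. Parm1 had 184 and 655 on the deprived and 515 and 580 on the non-deprived arrays. For both genes deprived array 1 was far below the other 3 arrays, which were close together. The log2 differences were -0.39 ± 0.25 (SE) for Fezf2 and -0.54 ± 0.41 for Parm1, with limma adjusted p of 0.991 and 0.999. Without deprived array 1 they turned to 0.055 and 0.24. Over all tested probe sets, deprived array 1 correlated least with the other arrays, with a mean r of 0.910 against 0.930 to 0.934 for the rest. Of the deep-layer members, Crym was highest on deprived array 1, and Tbr1 was not lowest there.

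In the upper layers, the smallest p belonged to Matn2, a matrix protein gene, and Kcnab3, which encodes a subunit of potassium channels. Matn2 had 401 and 264 in deprived and 175 and 174 in non-deprived cortex, a log2 difference of 0.72 ± 0.39 (SE) with a limma adjusted p of 0.970. Kcnab3 had 274 and 269 on the deprived and 353 and 508 on the non-deprived arrays, a difference of -0.55 ± 0.32 with an adjusted p of 0.984. At these probe sets the arrays of the groups did not overlap, and the genes pointed in opposite directions. A second Matn2 probe set was too dim to test and did not repeat the difference. Its signals were 68.8 and 123 in deprived and 206 and 45.9 in non-deprived cortex. With no filter its log2 difference was -0.13 ± 0.57 (SE). In the list of layer 1 and the subplate, Nr4a2, a nuclear receptor of deep-layer and subplate neurons, gave -0.47 ± 0.30 and the secreted factor Ccn2 gave -0.24 ± 0.33. A second Nr4a2 probe set gave -0.16 ± 0.40.

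**Figure D3:**
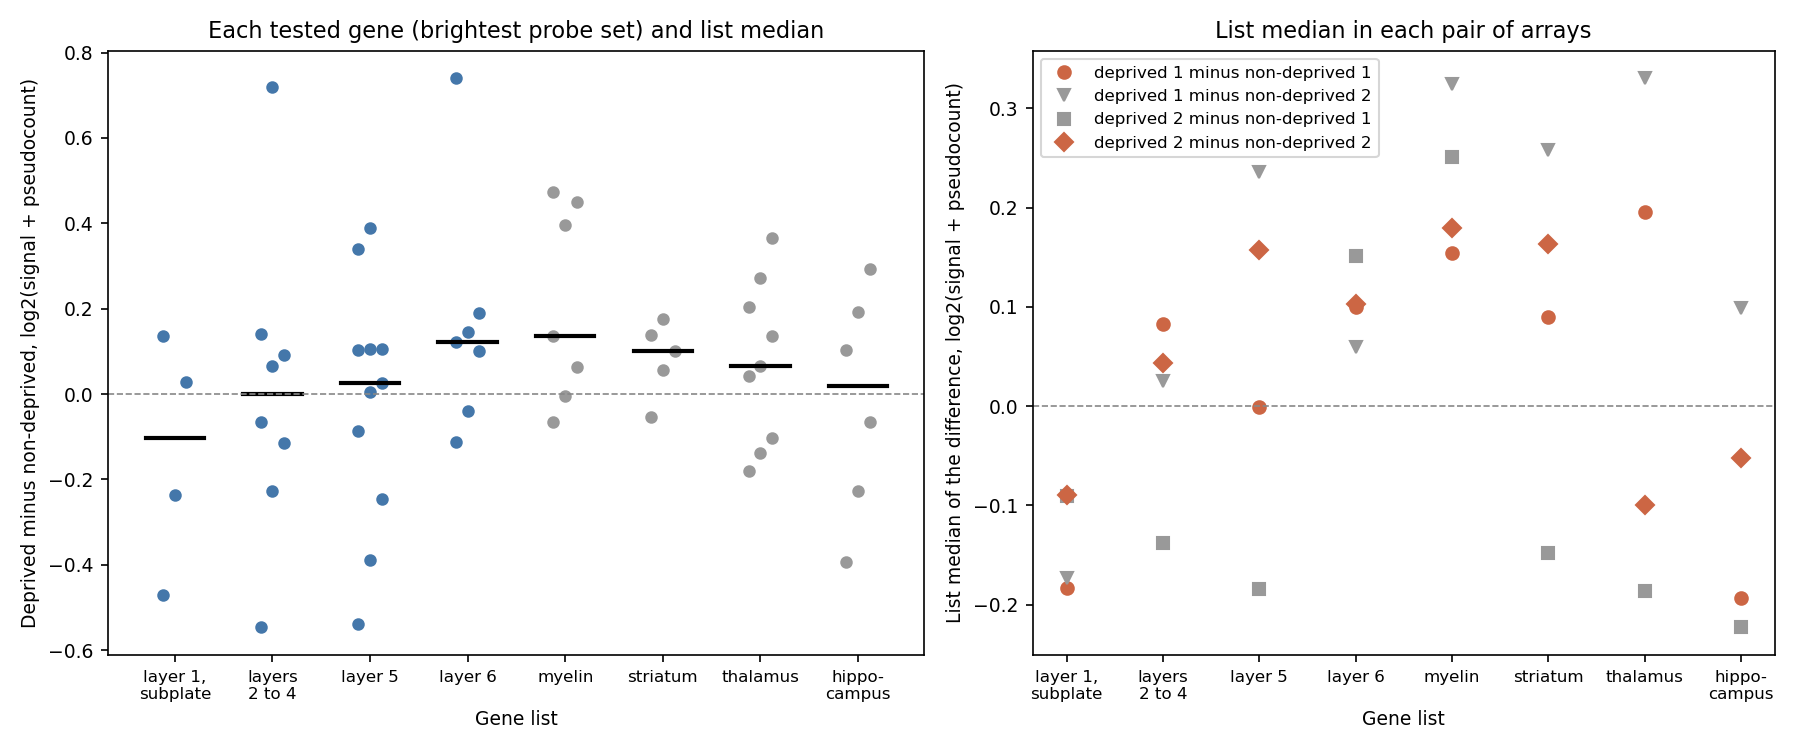
Left, difference between deprived and non-deprived cortex (vertical axis, log2 of signal plus pseudocount) of each tested gene of the wider layer lists (blue) and of lists for myelin and neighbouring regions (grey), with black lines at the list medians. Right, the list medians for the 4 ways to pair deprived with non-deprived arrays, which share arrays; the layer 6 medians run from 0.06 to 0.15 and the layers 2 to 4 medians from -0.14 to 0.083.

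The layer 6 median was above 0 in all 4 pairs of arrays, from 0.06 to 0.15, although it was below 0 when deprived array 2 was left out. Layer 5 medians ran from -0.18 to 0.24 over the pairs and those of layers 2 to 4 from -0.14 to 0.083. The median of layers 2 to 4 minus that of layer 6 was -0.017 and -0.059 in the same-numbered pairs and -0.035 and -0.29 in the crossed ones. The pairs share arrays and are not separate readings.

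Markers of white matter and of regions next to the cortex were measured on the same arrays, since a deeper cut would also bring these in. The myelin list had 9 of its 14 genes on the array and 7 tested, 5 higher and 2 lower, with a median of 0.14 and none called. Its summed signal was 15649 and 14356 in deprived and 13252 and 12268 in non-deprived cortex, so the deprived arrays were the higher ones. Mobp, a myelin protein gene, had the smallest p of that list with each gene read at its brightest probe set. There the log2 difference was 0.47 ± 0.17 (SE), with a limma unadjusted p of 0.0182 and an adjusted p of 0.687. The signals of that probe set, 4853 and 4575 in deprived and 3707 and 3079 in non-deprived cortex, are part of the sum. The other 3 tested Mobp probe sets pointed the other way, at -0.14 ± 0.30, -0.59 ± 0.19 and -0.64 ± 0.26. The probe set at -0.59 had a smaller limma unadjusted p, 0.00832, than the brightest one. By its median and its sum the myelin list was higher in deprived cortex. The deep-layer values varied, with Rprm at 0.74, Crym at 0.44, Tbr1 at 0.02, Fezf2 at -0.39 and Parm1 at -0.54. The layer 6 median was 0.12 and the layer 5 median 0.025. Of the layer 5 genes 7 were higher and 4 lower, and of the layer 6 genes 5 were higher and 2 lower. The part of myelin in any of these values was not tested.

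For striatum, thalamus and hippocampus, 20 of 41 listed genes were tested, and none was called. These lists share genes with lists of cortical cells. Foxp1, Calb2, Rora, Calb1 and Wfs1 are also in the layer lists, and Cck, Calb2 and Tac1 in the list of inhibitory neurons. At these shared genes, neighbouring tissue and cortex cannot be told apart. The median over the 20 was 0.08, with 0.13 and 0.29 when deprived array 1 was compared with the non-deprived arrays and -0.19 and -0.033 when deprived array 2 was. By the median, deprived array 1 was thus above both non-deprived arrays in these genes and deprived array 2 was not. Their summed signal was 21002 and 22880 in deprived and 22029 and 24195 in non-deprived cortex. Much of that sum is Cck, which cortical interneurons also express, with 9336 and 12625 in deprived and 11190 and 13559 in non-deprived cortex. The part of neighbouring tissue in the layer marker values was not tested.

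Of 4 defining markers of cortical excitatory neurons, Tbr1 and Neurod6 were measured, and Slc17a7 and Emx1 had no probe set of their own. Neurod6 was dim, with signals of 241 and 178 in deprived and 210 and 292 in non-deprived cortex. Its groups overlapped, with a log2 difference of -0.20 ± 0.40 (SE). The list of genes common to neurons had 16 genes tested, 13 of them lower and 3 higher, with a median of -0.11 and none called. In limma 2 of the 16 had an unadjusted p under 0.05, beside 5.43% of all tested probe sets. Groups did not overlap at 5 of the 16, beside 32.2% of all tested probe sets. The smallest p of the list was that of Map2, a microtubule protein of dendrites, at -1.79 ± 0.39 (SE) with a limma adjusted p of 0.199. The Map2 signals were 85.0 and 120 in deprived and 413 and 605 in non-deprived cortex. Both deprived signals were under the filter of 142.9, so Map2 passed it only through the non-deprived arrays. The Map2 value is therefore given as a description only. The other of the 2 was Nefl, with signals of 616 and 607 in deprived and 931 and 1113 in non-deprived cortex, all above the filter. Its log2 difference was -0.68 ± 0.21 (SE), with a limma unadjusted p of 0.00667 and an adjusted p of 0.515. Snap25, the brightest gene of the list, gave -0.25 ± 0.23 with a limma adjusted p of 0.999. Both deprived arrays were below both non-deprived arrays for Snap25. RNA integrity can be read from the control gene actin, whose 5′ probe set gave a share of the 3′ signal of 0.544 and 0.463 in deprived and 0.638 and 0.632 in non-deprived cortex. The same ratio for Gapdh was 0.745 and 0.689 on the deprived and 0.875 and 1.07 on the non-deprived arrays. Both ratios were lower on the deprived arrays, and their part in the layer marker values was not tested.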

How the data were processed

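The data were 4 single-colour Affymetrix arrays, 2 per group, made from about 10 µg of total RNA each, per the labels. The authors deposited linear intensities, 1 signal per probe set, made with MAS5 according to the submitters' processing notes. Its version, detection calls and scaling target are not given in the sources used here. Arrays were scaled to a common 2% trimmed mean, and the analysis used log2(signal + 60.6), with the pseudocount set at the 20th percentile of mean signals. The 66 controls were left out, as were probe sets whose mean signal was under the 40th percentile, 142.9. Symbols were updated through a RefSeq table of GRCm38.p6, which matched 10839 of 10855 probe sets with a single symbol. limma 3.58.1 in R 4.3.3 (lmFit, eBayes with a mean-variance trend, 11.6 total degrees of freedom) was run over 7458 probe sets, two-sided. It was also tried on simulated data with independent noise and changes larger than any member difference. That trial does not show how well differences of the size of the members are found. The number of arrays limits the precision.

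The design text names cross-animal comparisons as additional, so same-numbered arrays were read as sharing animals. The main fit did not use this pairing, and the fit with a replicate block did. The deviations of same-numbered arrays correlated with r = 0.27 over probe sets. The median signal was also higher on both replicate 1 arrays, so this correlation does not show that animals were shared. No pair of arrays had more than 13 equal signals.

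The members and lists were chosen with earlier results of these data known. Named genes were all members, the 2 tested genes with the smallest p of each wider layer list, and, of each list of other cells or regions, the brightest gene and the gene with the smallest p, of which those that bear on the markers are given. Nefl was added as the other neuron gene with a limma unadjusted p under 0.05, and Neurod6 as a defining marker. Further lists, for inhibitory neurons, astrocytes, microglia, endothelium and choroid plexus, had medians of -0.17, -0.03, -0.01, 0.01 and 0.16, with none called. Probe sequences and positions were not analysed here, so neither sequences nor coordinates are given.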

Additional observations from a re-analysis of the deposited data

How the results depend on the processing

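At an adjusted p under 0.05, no tested layer marker probe set was called in any alternative fit, the replicate block included, and no wider layer gene at its brightest probe set in those fits run with these lists. In the main fit, at an unadjusted p under 0.05, Rprm passed and no member did. Of 103 values of members under these alternatives, 93 kept their sign and 10 changed it, all in probe sets of Lmo4, Tbr1 and Mef2c whose differences lay between -0.10 and 0.08, and the lowest adjusted p was 0.403. After quantile normalization Lmo4 was -0.0066 and Tbr1 -0.0090. With 1 array left out, Lmo4 ran from -0.11 to 0.13, Tbr1 from -0.18 to 0.22, Mef2c 104592_i_at from -0.12 to 0.27, Mef2c 104591_g_at from -0.38 to 0.18, Mef2c 97357_at from -0.36 to 0.16, and with no change of sign Mef2c 104590_at from 0.10 to 0.34 and Crym from 0.21 to 0.67. Among other layer genes Fezf2 ran from -0.83 to 0.055, Parm1 from -1.31 to 0.24 and Ccn2 from -0.53 to 0.055, and with no change of sign Rprm ran from 0.49 to 0.99, Matn2 from 0.46 to 0.97, Kcnab3 from -0.78 to -0.32 and Nfib from 0.025 to 0.26. A group left with 1 array takes its spread from the other group. The member median ran from 0.011 to 0.16 and was highest without deprived array 1 or, at 0.12, non-deprived array 1. The upper minus deep difference ran from -0.35 to -0.012 with 1 array left out and was 0.028 with a filter at the 60th percentile, which removed Crym. The replicate block changed no call of a member, and left their median at 0.034 and the upper minus deep difference at -0.18. The background count of 8 called probe sets became 1 after quantile normalization, 3 with a common median, 0 without the variance trend (390 at an unadjusted p under 0.05), 40 with the block, 405 at an unadjusted p under 0.05, and 5 to 90 with 1 array left out. Apart from the looser threshold and the removal of Crym, the cause was not tested.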
